A study of Mus musculus with 3 samples.

Results

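The genes described here encode subunits of the phagocyte NADPH oxidase and its small GTPases: Cybb, Cyba, Ncf1, Ncf4, Rac1 and Rac2, 6 of the 22350 protein-coding genes annotated by GENCODE M1 on chromosomes 1 to 19 and X of the mouse genome (build mm9). They were chosen by name as parts of 1 enzyme, with earlier results of these data known. The samples were macrophages grown in culture from the bone marrow of female Fvb mice and used on day 7 of differentiation. Chromatin was immunoprecipitated with an antibody (Abcam ab5131) to RNA polymerase II whose carboxy-terminal repeat is phosphorylated at serine 5 (Ser5-Pol_II), from untreated cells and from cells given the bacterial lipopolysaccharide LPS at 10 ng/ml for 2 h, and input DNA of untreated cells was sequenced beside them. Each of the 3 conditions was 1 library, so no test was possible, and every interval below is a 95% interval that covers counting error only.

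The oxidase makes superoxide from oxygen with electrons of NADPH, in the phagosome and at the plasma membrane, and loss of its subunits in people causes chronic granulomatous disease. Cybb (gp91phox, the catalytic chain) and Cyba (p22phox) form its membrane cytochrome, Ncf1 (p47phox) and Ncf4 (p40phox) are cytosolic subunits that move to the membrane on activation, and the GTPases Rac1 and Rac2 complete the active enzyme. Serine 5 phosphorylation marks polymerase near the start of transcription and in early elongation. The study describes it as kept along the transcribed gene up to its 3′ end. A tag is 1 aligned read, counted where its 5′ end falls, and levels are given in RPKM, here tags per kb of sequence for each 1000000 tags of the library. Tags carry no RNA strand, so polymerase on overlapping genes cannot be told apart.

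The libraries held 6249819 to 7616771 tags on these chromosomes. Tags were 45 bases long in the untreated Ser5 library and 30 in the LPS library, the reverse of the lengths in the study's methods. The 7 LPS-response genes looked up as a check of the labels were all at least 2 times higher in the library labelled LPS, by 6.18 to 396 times. All 7 macrophage marker genes had a Ser5 peak at their start in both libraries, although after LPS 2 of them (Emr1 and Cd14) were at least 2 times higher and 4 (Csf1r, Itgam, Lyz2 and Cd68) at least 2 times lower. The starts of the 3 T cell, 3 B cell and 1 hepatocyte markers had no peak in either library, although over their records 2 of the T cell markers, Cd3d and Lck, had 3.84 and 3.15 times the input level in untreated cells. Of 5 neutrophil markers 1 had a peak untreated (S100a8) and 1 after LPS (Camp). Among all coding genes 48.0% had a peak at the start untreated and 45.9% after LPS. Over their records Camp (11 to 29 tags) and the B cell marker Ms4a1 (13 to 34 tags) were also at least 2 times higher after LPS.

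Cybb stood apart from the other 5 genes in how far it moved, and its sequences are shown first for that reason. Its coding transcript Cybb-001 starts at position 9046450 of chromosome X and runs on the minus strand to 9012378. The annotated record is longer, to 9064897, because a shorter transcript, Cybb-005, begins far upstream. The region where Ser5 tags appeared after LPS therefore lies upstream of the Cybb-001 start and inside the first intron of Cybb-005. The first sequence is the Cybb promoter, from 250 bases before to 50 after the Cybb-001 start, chrX:9046401-9046700. The second is the 300 bases around the midpoint of the strongest upstream peak of the LPS library, chrX:9047589-9047888, where the LPS library gained its highest signal at the locus. Both are from mm9, written 5′ to 3′ on the minus strand, and capitals mark matches to the motifs named next.

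Cybb promoter: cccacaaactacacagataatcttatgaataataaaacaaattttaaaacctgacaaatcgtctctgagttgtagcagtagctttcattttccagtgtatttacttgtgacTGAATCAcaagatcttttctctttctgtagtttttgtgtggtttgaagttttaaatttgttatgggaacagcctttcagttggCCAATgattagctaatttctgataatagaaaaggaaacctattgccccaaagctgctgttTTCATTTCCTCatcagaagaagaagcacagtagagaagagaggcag

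Cybb upstream peak: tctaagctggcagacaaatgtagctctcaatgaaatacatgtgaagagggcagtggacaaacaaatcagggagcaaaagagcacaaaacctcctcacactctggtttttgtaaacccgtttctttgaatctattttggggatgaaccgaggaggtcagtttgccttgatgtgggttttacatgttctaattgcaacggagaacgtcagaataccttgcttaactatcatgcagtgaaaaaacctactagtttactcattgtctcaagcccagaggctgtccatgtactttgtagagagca

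Ncf4 and Rac2 were the other members with motif matches in their promoters. Their promoters over the same span, chr15:78074981-78075280 on the plus strand for Ncf4 and chr15:78403164-78403463 on the minus strand for Rac2, are shown for comparison.

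Ncf4 promoter: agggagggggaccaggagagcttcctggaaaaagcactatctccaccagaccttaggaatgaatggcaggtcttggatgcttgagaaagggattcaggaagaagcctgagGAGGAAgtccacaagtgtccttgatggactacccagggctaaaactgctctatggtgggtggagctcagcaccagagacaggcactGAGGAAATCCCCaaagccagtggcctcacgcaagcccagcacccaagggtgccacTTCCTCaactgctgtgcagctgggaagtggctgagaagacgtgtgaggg

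Rac2 promoter: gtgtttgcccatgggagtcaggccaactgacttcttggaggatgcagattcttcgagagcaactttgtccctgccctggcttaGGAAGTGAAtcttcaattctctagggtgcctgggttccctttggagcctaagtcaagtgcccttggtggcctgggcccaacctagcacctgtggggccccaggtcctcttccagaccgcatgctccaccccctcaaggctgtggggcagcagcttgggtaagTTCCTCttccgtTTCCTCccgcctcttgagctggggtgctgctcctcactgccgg

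Matches were searched on both strands for GAGGAA (the core bound by the macrophage factor PU.1), GGAANNGAA (a PU.1-IRF composite, which can overlap the former), TGANTCA (AP-1), the NF-kappaB consensus, CCAAT and TATAAA. Counting the first transcribed base as 1, the Cybb promoter held a CCAAT at -56, an AP-1 match at -139, and at its start a GAGGAA at 10 that overlapped a composite at 5, both on the opposite strand. Of the 32851 RefSeq promoters of the same length (GRCm38.p6), 37.4% held a CCAAT, 7.81% an AP-1 match, 28.3% a GAGGAA and 8.24% a composite. The Ncf4 promoter held 3 GAGGAA matches, 1 of them overlapping an NF-kappaB match at -52 that 4.51% of promoters had. The Rac2 promoter held 2 GAGGAA matches and a composite at -167. No TATAAA (13.6% of promoters) was in any of the 6 promoters. Neither the promoters of Cyba, Ncf1 and Rac1 nor the 300 bases shown of the upstream peak matched any of these motifs. The rest of that peak was not searched. The 300 bases around the midpoint of a farther upstream peak (chrX:9050882-9052015) held 3 CCAAT matches. Of 49368 windows of 300 bases around the midpoints of LPS peaks, 29.6% held a GAGGAA, 10.2% an AP-1 match and 31.3% a CCAAT. A match is a description of letters, not a site. The promoters of Cybb, Cyba and Ncf1 are in the RefSeq table, and all 3 had the same letters in mm9.

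Before LPS, the order of the members by Ser5-Pol_II per kb of gene record ran from Cyba to Cybb. Cyba had 17.5 RPKM, Ncf1 12.8, Rac2 12.3, Ncf4 10.7, Rac1 4.53 and Cybb 1.17. Ncf1 and Rac2 were neighbours whose ratio of 1.03 had an interval holding 1 (0.949 to 1.13), whereas each other neighbouring pair differed by more than its counting error. After LPS the levels were 19.9 for Cyba, 18.0 for Rac2, 15.3 for Ncf1, 14.3 for Ncf4, 9.96 for Cybb and 4.02 for Rac1, so that Cybb passed Rac1. Ncf1 and Ncf4 were then the neighbours not separated by counting error (ratio 1.07, 0.987 to 1.16). Input levels over the same records lay between 0.516 for Cybb and 1.19 for Ncf4, and the median of all coding genes in the untreated Ser5 library was 0.420.

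**Figure D1:**
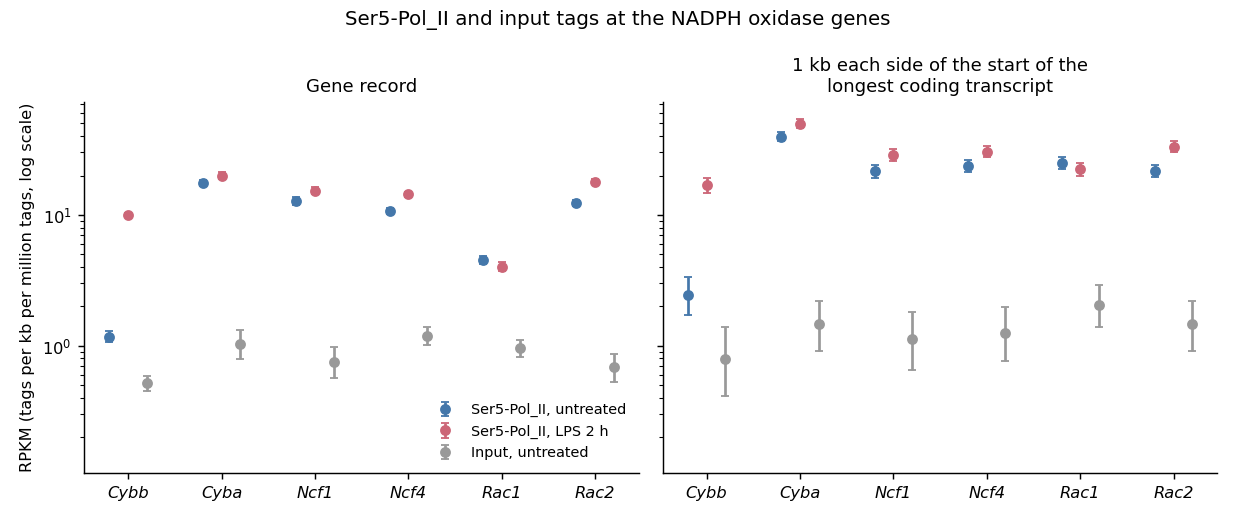
Level in RPKM (log scale) over the gene record (left) and within 1 kb of the start of the longest coding transcript (right), for each member in the 3 libraries, with 95% Poisson intervals as bars. Cybb sits lowest of the members before LPS and is the gene with the wide gap between the untreated and LPS points.

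Over the gene record, 1 of the 6 members was at least 2 times higher after LPS, which was Cybb, against 5.82% of the 17386 coding genes that had at least 10 tags over both Ser5 libraries. None was at least 2 times lower, against 11.2% of these genes. All 6 members passed that minimum of tags. The ratio of LPS to untreated had a median of 0.873 over all genes tested, with quartiles at 0.665 and 1.14.

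Cybb, the catalytic chain, had 469 tags untreated, 3268 after LPS and 204 in input over its gene record (chrX:9012378-9064897). The LPS library was 8.49 times the untreated one (7.71 to 9.37), higher than 99.7% of the genes tested. The untreated level was 2.27 times input (1.93 to 2.69). Over the Cybb-001 transcript alone the tags were 438, 2727 and 159 and the ratio 7.59 (6.86 to 8.41). Within 1 kb of the Cybb-001 start there were 37 tags untreated, 210 after LPS and 12 in input, a ratio of 6.92 (4.86 to 10.1). Of these, 2 untreated and 107 after LPS lay 0.5 to 1 kb in front of the start, where an upstream peak described below reaches into the window. The untreated peak at the start itself changed by 2.79 times (1.70 to 4.72). Cybb was thus low but above input before LPS, and the gain was seen from its start to its end.

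The gain along Cybb was spread over the transcript and larger in front of it. Each transcript was cut into 3 equal parts. In the 5′ part of Cybb-001 the tags rose from 172 to 1217 (8.62 times, 7.35 to 10.2), in the middle part from 136 to 762 (6.83, 5.68 to 8.26) and in the 3′ part from 130 to 748 (7.01, 5.81 to 8.51). Upstream, between 1 and 10 kb before the start, they went from 22 to 416, or 23.0 times (15 to 37.2), while the untreated level there was 0.725 times that of input (0.399 to 1.30). The level in LPS cells fell from 17.1 RPKM in the 5′ part to 10.7 and 10.5 in the others. In the 5 kb after the 3′ end the tags were 36 and 205 (6.94 times, 4.85 to 10.2), in a stretch where 80.4% of 30-base sequences occur more than once in the genome and few reads can be placed.

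The upstream signal was concentrated in a region (chrX:9047076-9048520) that the study lists among its induced predicted enhancers. The study predicted enhancers from the histone marks H3K4me1 and H3K4me3 of unstimulated cells. The region was found, and called induced, by immunoprecipitation of total RNA polymerase II, so its direction is not independent evidence. For that call the stimulated cells were given gamma interferon with LPS, whereas the Ser5 cells were given LPS alone. There the Ser5 tags numbered 18 untreated, 431 after LPS and 14 in input. The ratio was 29.2 (18.2 to 49.7), and the region's midpoint lay 1348 bp in front of the Cybb-001 start. The study tested this region with a 168-bp amplicon (chrX:9047903-9048070), whose primers, read from its primer list and placed by exact match, are shown since they locate the tested site. Around the amplicon, with 250 bp added on each side, 11 tags were counted untreated, 226 after LPS and 8 in input.

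Forward primer: ctggcttcgagaaactggac

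Reverse primer: ccctgcagtgctgttgacta

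Of 3 further regions in front of Cybb that the study lists as induced but not as enhancers, 2 gained Ser5 tags. The region chrX:9051007-9051458 went from 1 to 29 tags and the region chrX:9051523-9052063 from 0 to 28. The last, chrX:9048836-9049064, had 1 tag untreated and 0 after LPS and showed no detectable signal at this depth. No constitutive or induced region of that list lay within 20 kb of the other 5 genes. Regions that the list calls repressed are not reported here.

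The authors' peak lists, called in each Ser5 library against input, differed most at Cybb. Within its gene record the untreated list had 5 peaks covering 2.56% of the bases and the LPS list 30 peaks covering 63.9%. Of the Cybb-001 transcript the LPS peaks covered 90.2% and the untreated peaks 3.57%. All 5 untreated peaks in the transcript overlapped an LPS peak. The untreated peaks were 165 to 432 bp long with scores of 54.2 to 119, and the LPS peaks in the transcript were 155 to 3127 bp long with a median of 824 bp. The score is the negative log10 of the peak caller's p-value times 10, and values stop at 3100.

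**Figure D2:**
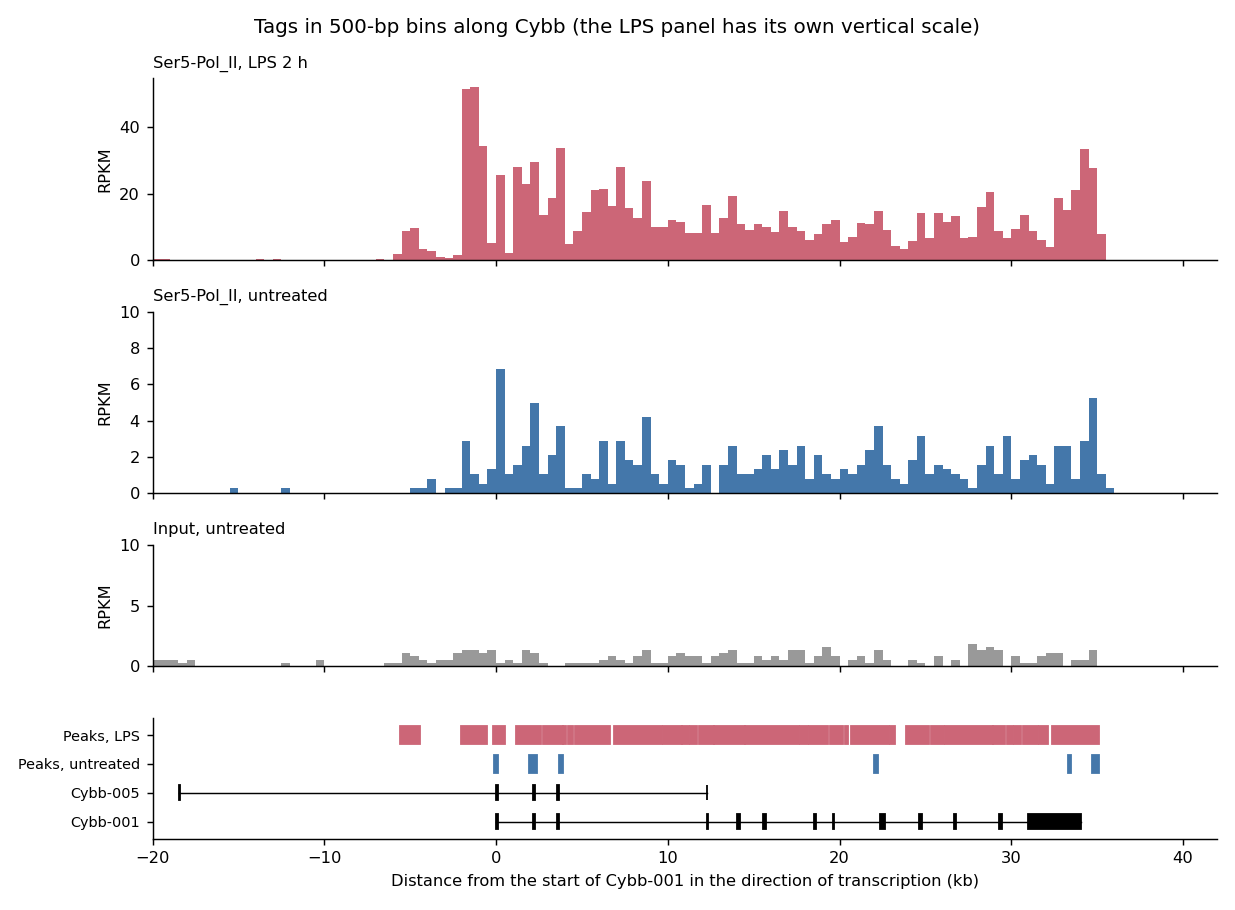
Level in RPKM in 500-bp bins along Cybb, against the distance in kb from the start of Cybb-001 in the direction of transcription, with the exons of Cybb-001 and Cybb-005 and the deposited peaks below. The LPS panel has its own vertical scale. Its tallest bins lie 1 to 2 kb in front of the start. A separate group near 5 kb in front of it is lower than many bins in the transcript.

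Peaks that lay wholly in introns of Cybb-001 numbered 13 in the LPS list and 1 in the untreated list. The untreated one, chrX:9024187-9024440 in intron 8, had 11 tags untreated and 28 after LPS (3.10 times, 1.5 to 6.91). Intron 3, the longest at 8599 bp, held 7 of the LPS intronic peaks. The longest of them, chrX:9036810-9039579 with its midpoint 8256 bp after the start, went from 44 to 298 tags (8.25 times, 6.00 to 11.6) and scored 2165. The next, chrX:9039800-9041831, went from 21 to 244 tags, a ratio of 14.2 (9.06 to 23.3). Over whole introns the ratio ran from 4.60 in intron 9 to 10.2 in intron 5, every intron was higher after LPS, and intron 3 as a whole rose from 96 to 766 tags (9.72 times, 7.86 to 12.2).

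A pair of LPS peaks lay in front of Cybb-001, in intron 1 of Cybb-005. The nearer, chrX:9046968-9048509, was at the score limit of 3100 and went from 18 to 433 tags. The farther, chrX:9050882-9052015, went from 1 to 61 tags, a ratio of 74.3 (12.9 to 2984) that rests on a single untreated tag. Neither overlapped an untreated peak. At the start itself the untreated peak chrX:9046310-9046577, which scored 119, changed less, from 24 to 55 tags (2.79, 1.70 to 4.72). The start thus held the strongest peak of untreated cells, and the upstream peaks, which that list lacked, had the larger ratios. These peaks were called in the libraries compared, so their ratios are descriptions.

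Cyba, the partner of Cybb in the membrane cytochrome, had the highest level of the 6 in both Ser5 libraries. Over its gene record (chr8:124948672-124956840, minus strand) there were 1090 tags untreated, 1016 after LPS and 63 in input. The LPS library was 1.14 times the untreated one (1.04 to 1.24), higher than 74.7% of genes tested. Peaks covered 77.9% of the record untreated and 78.6% after LPS. The rise was in its 5′ part (688 to 703 tags, 1.25 times, 1.12 to 1.39), while the middle part had a ratio of 0.959 (0.774 to 1.19) and the 3′ part 0.938 (0.756 to 1.16). Within the 5′ part the first 250 bp, the tallest bin, did not rise, with 264 and 180 tags (0.831, 0.684 to 1.01). In the bin with its midpoint 625 bp after the start, the level went from 35.2 to 80.6 RPKM. A separate crest stood 2.25 to 2.5 kb after the start, with 83 and 97 tags. A readthrough record, Gm20388, spans the whole gene, and the end of Mvd, a gene of the mevalonate pathway, lies 656 bp in front of Cyba, so tags of these genes cannot be told apart from those of Cyba.

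Ncf1, the organizer subunit, had 930 tags untreated, 918 after LPS and 54 in input over its record (chr5:134695923-134705495, minus strand), a ratio of 1.2 (1.10 to 1.32). The tags within 1 kb of its start were 328, 361 and 17 (1.34 times, 1.15 to 1.56). In the first 250 bp alone 204 and 233 tags were counted. The 3′ part had a ratio of 0.984 (0.805 to 1.2). Peaks covered 95.2% of the record untreated and 95.4% after LPS, so that nearly the whole gene was occupied in both libraries. The 3′ end of Gtf2ird2, transcribed from the other strand, overlaps 4303 bp of the record.

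Ser5-Pol_II was high on both sides of Ncf1 as well. Between 1 and 10 kb in front of the start the tags went from 579 to 297, a ratio of 0.625 (0.542 to 0.720), opposite in direction to the gene itself. The last bases of Gtf2i, a transcription factor gene on the same strand, fall in that window. Gtf2i ends 8209 bp in front of Ncf1, and which gene the signal between them belongs to was not tested. In the bin with its midpoint 2125 bp in front of the start, the level went from 57.8 to 23.0 RPKM. In the bin 2.5 to 2.75 kb in front of it the tags were 83 and 74, a ratio of 1.09 not separated from 1 by counting error. In the 5 kb after the 3′ end of Ncf1 the tags were 578 and 464 (0.978, 0.864 to 1.11). In untreated cells the density there was 1.47 times that of the transcript after its first 1 kb (1.31 to 1.65). That flank lies inside Gtf2ird2. Of 30-base sequences within 1 kb of the start, 21.0% occur elsewhere in the genome.

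Ncf4, the p40phox subunit, had 1445 tags untreated, 1591 after LPS and 159 in input over its record (chr15:78075231-78093010, plus strand). The ratio was 1.34 (1.25 to 1.44), higher than 84.0% of genes tested. Its Ser5 signal was crowded into the 5′ part, where 1001 and 1161 tags gave 22.2 and 31.3 RPKM, against 4.05 and 3.46 in the middle part. Its tallest 250-bp bin was not at the start but 1.5 to 1.75 kb after it, with 164 and 178 tags, against 140 and 123 at the start. The 5′ and 3′ parts had ratios of 1.41 (1.30 to 1.54) and 1.41 (1.19 to 1.67), and the middle part 0.852 (0.675 to 1.07). Between 1 and 10 kb before the start the tags were 14, 25 and 55, below input in both Ser5 libraries.

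Rac2, the GTPase of blood cells, showed the largest ratio of the members after Cybb. Its record (chr15:78389599-78403213, minus strand) had 1279 tags untreated, 1530 after LPS and 70 in input, a ratio of 1.46 (1.35 to 1.57) that was higher than 87.1% of genes tested. Within 1 kb of the start the tags were 330, 414 and 22 (1.53 times, 1.32 to 1.77). The 5′, middle and 3′ parts had ratios of 1.5 (1.33 to 1.69), 1.67 (1.40 to 2.00) and 1.33 (1.18 to 1.5). Rac2 differed from the rest in shape, since its 3′ part held 550 and 601 tags, beside 504 and 620 in its 5′ part. Peaks covered 91.3% of it untreated and 93.6% after LPS, and its 5 kb flank had little, at 0.205 times the density of the transcript after the first 1 kb untreated (0.161 to 0.257).

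Rac1, the widely expressed GTPase, was the only member with a lower level after LPS. Its record (chr5:144266346-144288904, minus strand) had 779 tags untreated, 567 after LPS and 162 in input, a ratio of 0.887 (0.795 to 0.990), close to the median of all genes, and under 3 of 4 alternative settings the interval held 1. Within 1 kb of the start of Rac1-002 the tags were 382, 278 and 31 (0.887, 0.757 to 1.04), a ratio not separated from 1 by counting error. Its signal was the most concentrated at the start, where the density was 7.48 times that of the transcript after its first 1 kb untreated (6.55 to 8.54) and 7.64 times after LPS (6.53 to 8.94). In the other members this quotient lay between 1.31 for Cybb after LPS and 4.15 for Cyba after LPS. The start window of Cybb took in part of its upstream peak.

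Among the parts of Rac1, the 3′ part alone was lower by more than counting error. The 5′ part had a ratio of 0.979 (0.833 to 1.15), the middle part 0.949 (0.764 to 1.18) and the 3′ part 0.674 (0.532 to 0.850). The 5 kb after the 3′ end had 268 tags untreated and 116 after LPS (0.528, 0.421 to 0.658). The end of Daglb, a lipase gene on the other strand, lies 1036 bp beyond Rac1. Most of that flank is thus inside Daglb, and tags of the genes cannot be told apart there. Peaks covered 31.9% of the record untreated and 20.6% after LPS. Over the 5 kb flank Cyba had a ratio of 0.866 (0.732 to 1.02), Ncf4 1.09 (0.900 to 1.33) and Rac2 1.10 (0.789 to 1.53), none separated from 1 by counting error.

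**Figure D3:**
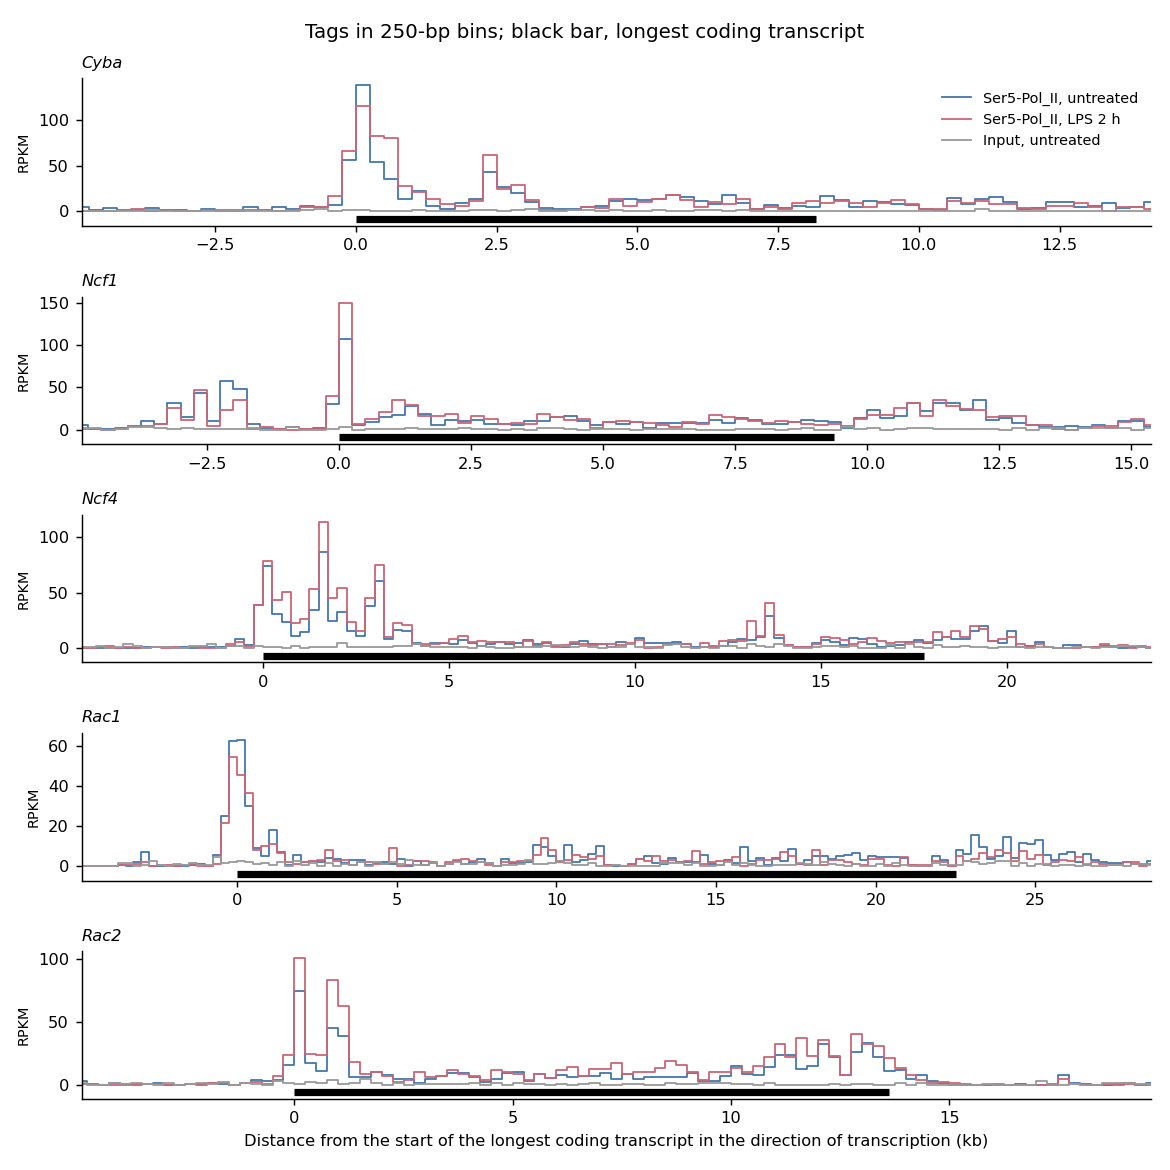
Level in RPKM in 250-bp bins along Cyba, Ncf1, Ncf4, Rac1 and Rac2, against the distance in kb from the start of the longest coding transcript in the direction of transcription, for the 3 libraries, with the transcript as a black bar. Rac1 has 1 sharp crest at its start, Ncf4 has 3 crests in its first 4 kb, Rac2 has a second broad rise before its 3′ end, and Ncf1 has signal on both sides of the gene.

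At the starts, the call depends on which start of Cybb is used. Within 1 kb of the 5′ end of each gene record, none of the 6 was at least 2 times higher or lower after LPS, against 5.61% higher and 14.1% lower of 12536 genes. The Cybb record's 5′ end is that of Cybb-005, where both Ser5 libraries had 0 tags and input had 7, so Cybb could not enter this count. By the start of the longest coding transcript, Cybb was the 1 member at least 2 times higher (5.71% of 12581 genes) and none was lower (14.1%). That window of Cybb took in part of its upstream peak. Against input at that start, all 6 were at least 2 times above it in the untreated library (72.1% of genes) and in the LPS library (70.7%). By the record's 5′ end the 5 members other than Cybb were (71.9% and 70.4%).

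Every member had a Ser5 peak within 1 kb of the start of its longest coding transcript in both libraries, as had 47.9% of coding genes untreated and 45.9% after LPS. By the record's 5′ end 5 of 6 had one, against 48.0% and 45.9%. The untreated Cybb peak was the weakest of the 6. The top score at the start was 119 for Cybb, against 1919 for Ncf1, 2047 for Rac1, 2322 for Rac2 and the limit of 3100 for Cyba and Ncf4. After LPS it was at the limit in Cybb, Cyba, Ncf4 and Rac2, although in Cybb the peak at the limit was the upstream one reaching into the window.

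**Figure D4:**
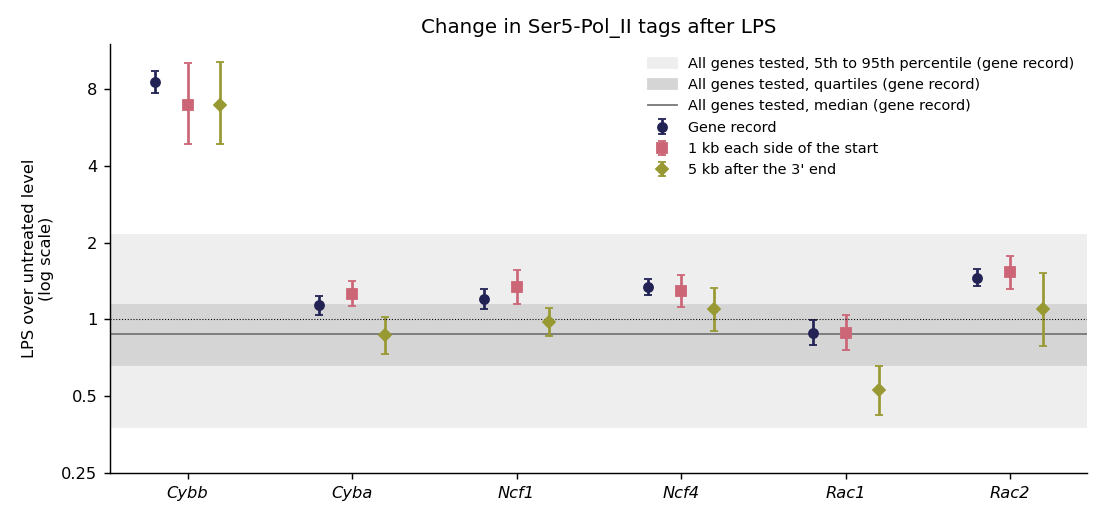
Ratio of LPS to untreated level (log scale) for each member over its gene record, within 1 kb of the start of its longest coding transcript, and in the 5 kb after its 3′ end, with exact 95% intervals as bars. Grey bands give the quartiles and the 5th to 95th percentiles of the gene record ratio over all genes tested (0.378 to 2.13). Cybb lies above the outer band in all 3 windows, and the other members lie inside it. The start window of Cybb takes in part of its upstream peak.

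Of 15 other genes for the assembly and regulation of the oxidase (guanine exchange factors, kinases, GTPase regulators and the proton channel that balances its charge), 0 were at least 2 times higher and 0 at least 2 times lower, against 5.82% and 11.2% of all genes tested, so that a count of 0 in so short a list is near the background. Their ratios ran from 0.506 to 1.48, with a median of 0.892 against 0.873 over all genes. Prkcd, a protein kinase C that phosphorylates Ncf1 and was among the 2 genes of the list with most tags per kb, had 6.05 RPKM untreated and 8.97 after LPS. A Ser5 peak lay at the start of 14 of the 15 in each library, against 48.0% of coding genes untreated and 45.9% after LPS.

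Of 10 genes of the other NADPH oxidases and their partners, 8 had no Ser5 peak at their start in either library, where 48.0% of coding genes had one untreated and 45.9% after LPS. Rac3, another Rac GTPase, was the 1 gene at least 2 times lower, with 164 tags untreated, 39 after LPS and 12 in input (0.290, 0.199 to 0.413). Noxo1, the organizer of another oxidase, had the list's highest level after LPS, at 4.34 RPKM untreated and 5.07 after. The catalytic chains Nox1, Nox3, Nox4, Duox1 and Duox2, named after their values were seen, had 0.0430 to 0.150 RPKM untreated, and each was below its input. Over all coding genes the median was 0.420 RPKM untreated and 0.519 in input, so a level below input was not particular to them.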

How the data were processed

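The authors aligned reads to mm9 with Bowtie, keeping unique alignments of up to 2 mismatches. MACS was run on either Ser5 library with input as control, at a threshold of 1e-05. The deposited files hold aligned tags and peaks, and the deposited peak score is the negative log10 of the MACS p-value times 10. No replicate was pooled.

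Tags were counted by 5′ end over GENCODE M1 genes (NCBIM37, the same build). Levels are scaled to the tags on chromosomes 1 to 19 and X, with Poisson intervals. Ratios have exact intervals conditional on the sum. A gene was counted as higher or lower at a factor of 2, with at least 10 tags over both libraries (0 set to 0.5). Python 3.11.15, numpy and scipy were used, and the counting was tested on simulated data. Alternatives were 1 tag per position and strand, a 75 bp shift, scaling to tags outside peaks, unique 30-base positions, other starts and windows, and peak thresholds. Members and lists were chosen with earlier results of these data known. Of the listed pathway genes 1 is not reported here. The named genes are the members, and from each pathway list those past the factor and the 2 with most tags per kb, except 1 whose values are not given. The 5 catalytic chains of other oxidases were named after their values were seen.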

Additional observations from a re-analysis of the deposited data

How the results depend on the processing

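Of the 48 recomputed values that answer a comparison, 47 stayed on the same side or within 1.5 times. Among them was the ratio at the predicted enhancer upstream of Cybb-001. That ratio ran from 28.8 with 1 tag per position and strand to 31.4 with scaling to tags outside the peaks. The exception was the number of members at least 2 times higher at the start, which was 0 by the 5′ end of the gene record and 1 with the start of the longest coding transcript, because the Cybb record starts at another transcript. With that start the members above input and those with a peak also went from 5 to 6 in both libraries. For single members, 62 of 64 distinct recomputed ratios stayed inside the counting interval of the value given and none crossed 1 or the factor of 2. The ratio at the Cyba start rose to 1.41 with 1 tag per position and strand, and that of the Ncf4 record to 1.44 with scaling to tags outside the peaks. That scaling raised all ratios by 1.08 times, or 0.11 on the log2 scale, and moved the Rac1 record to 0.954. Its interval reached 1 there (0.855 to 1.06), with 1 tag per position and strand (0.818 to 1.04) and with unique 30-base positions (0.805 to 1.00). The alternatives that use the longest coding transcript against input and for peaks were chosen after seeing the data. With 1 library per condition, differences between cultures cannot be told apart from the effect of LPS.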
